A study of Mus musculus with 13 samples.

Results

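H3K4me3 regions carried by the NP23 pre-T lines 748T and 106A, and by neither of the other lines of the series, numbered 482 of 25059 (1.92%). They were found by merging overlapping peaks of the 4 H3K4me3 lists and keeping each merged region with a peak of 748T and of 106A and none of 961C or the SCL-LMO1 line. The presence and absence of H3K4me3 chose these regions, so their H3K4me3 widths and heights are given as a description. H3K27me3, NP23 and the second track of the lists were not used in the choice. With 1 library per line and mark, no difference between lines was tested.

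The series mapped chromatin of mouse leukaemia cell lines by chromatin immunoprecipitation and sequencing. Lines 748T and 106A came from NUP98-PHF23 (NP23) pre-T LBL of different C57BL/6 mice and are lymphoblasts. Line 961C came from an NP23 acute myeloid leukaemia of yet another C57BL/6 mouse and is a myeloblast line. The SCL-LMO1 line, 7298/2, came from a pre-T LBL without the fusion, on a C57BL/6 and C3H hybrid background. It differs from the NP23 pre-T lines in oncogene and in strain, which cannot be told apart here. All lines grew without cytokines and were untreated apart from fixation. Each line is 1 culture from 1 tumour, and the tagged fusion was mapped in 961C only.

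The fusion joins a part of NUP98, from the nuclear pore, to the PHD finger of PHF23, a fold through which it can recognise H3K4me3. That mark sits at active and poised promoters. H3K27me3 is placed by Polycomb repressive complexes at silenced genes, many of them developmental regulators. A promoter may hold H3K4me3 in one cell type and H3K27me3 in another, and in stem cells both marks are known to sit together at some promoters. Positions are on mm9. No mm9 annotation was used here, so the regions are named by position, genes were not assigned to them, and the lineage of the lines was not checked against marker genes.

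The lists set what presence means. H3K4me3 lists held 16324 to 17696 peaks, and H3K27me3 lists held 8412 peaks (748T), 5600 (106A), 19469 (961C) and 4875 (SCL-LMO1 line). The median H3K4me3 maximum was 76 reads for 748T, 97 for 106A, 38 for 961C and 76 for the SCL-LMO1 line. The text field that holds these heights is not explained in the lists, and it was read as numbers of reads. Read totals are not given, so depth is unknown and heights were compared as percentiles within a list. The lowest listed H3K4me3 maxima were 7, 5, 5 and 5 reads in the same lines, and a line without a listed peak may still hold some of the mark.

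The count of 482 rested on every one of the 4 lines. Regions with a 106A peak and none of 961C or the SCL-LMO1 line numbered 1946 when 748T was left out of the rule. Leaving out 106A gave 2215. Leaving out 961C gave 834, and leaving out the SCL-LMO1 line gave 1915. Among the other pairs of lines found alone, 748T with the SCL-LMO1 line made up 937 regions, 106A with the SCL-LMO1 line 628 and 748T with 961C 427. Both pairings with the SCL-LMO1 line thus counted more regions than the 482, with 1 library for each line.

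The edges of the rule were narrow. The least overlap between the 2 lines inside a member was 38 bp, on chromosome 11 from 119499646 to 119500089, with maxima of 25 reads in 748T and 14 in 106A. In 28 members the lines shared under 100 bp. The nearest peak of 961C or the SCL-LMO1 line lay 38 bp away, at the member on chromosome 19 from 53496104 to 53496491 (27 and 25 reads), and 9 members had such a peak within 100 bp. Just outside, regions on chromosome 7 from 87354926 to 87355366 and chromosome 8 from 73278083 to 73278369 were left out for 87 bp of SCL-LMO1 H3K4me3. They reached 13 and 11 reads in 748T, and 16 and 15 in 106A.

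Members were of moderate width. Their median was 722.5 bp (quartiles 404 and 1266), against 1370 bp where 961C shared the region, 1137 bp where the SCL-LMO1 line shared it, and 2008 bp where all lines did. These are widths of merged regions, which peaks of a further line can extend. The bases marked in 748T alone had medians of 495.5 bp in members, 930 bp with 961C and 746 bp with the SCL-LMO1 line. In 106A they were 569, 1067 and 771 bp. Members under 500 bp numbered 165, those of at least 500 and under 1000 bp 143, and those of 1000 bp or more 174, of which 43 reached 2000 bp. With 748T left out of the rule the median was 329.5 bp, and with 106A left out 410 bp. A single peak in each line made up 442 of the 482. Pairs found alone with the SCL-LMO1 line were alike in width, at 718 bp for 748T and 605 bp for 106A.

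**Figure D1:**
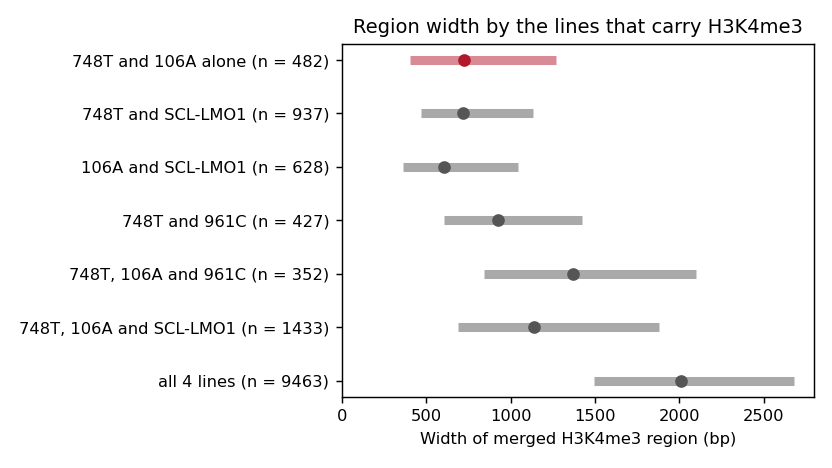
Width in bp of merged H3K4me3 regions, by the lines that carry the mark. Points are medians and bars run between the quartiles. Members (red) had a median of 722.5 bp, below the 1137 bp and 1370 bp of regions shared with a further line, whose peaks can extend a merged region.

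Height placed most members in the lower part of both lists. The median maximum was 26 reads in 748T (range 7 to 157) and 36.5 reads in 106A (range 9 to 197), at percentiles 24.6 and 26.9. In 395 members (81.95%) the peak was below the median of its list in both lines, and in 29 (6.02%) it was above in both. Regions shared with the SCL-LMO1 line had median maxima of 36 and 43 reads, those shared with 961C 50.5 and 72, and those of all lines 113 and 127. Other pairs of lines found alone were also low. Paired with the SCL-LMO1 line, 748T had 23 reads (percentile 21.4) and 106A 22 (16.8). Paired with 961C they had 25 (23.6) and 27.5 (21.4). Low height was thus not particular to members.

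Heights in the 2 lines went together in part. Over the 482 regions the height percentiles of 748T and 106A had a Pearson correlation of 0.652 and a Spearman correlation of 0.635. This describes regions that share the same libraries, and it carries no p. In regions shared also by 961C the Spearman value was 0.619, with the SCL-LMO1 line 0.666, and in all lines 0.817. The median gap between the percentiles was 10.1 points. The bases marked also agreed in part, with a median Jaccard index of 59.0% (shared bases over bases marked in either line). The index was 61.9% in regions shared with the SCL-LMO1 line, 69.0% with 961C and 82.2% in regions of all lines. The marked stretch was longer in 106A in 284 members and longer in 748T in 197.

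**Figure D2:**
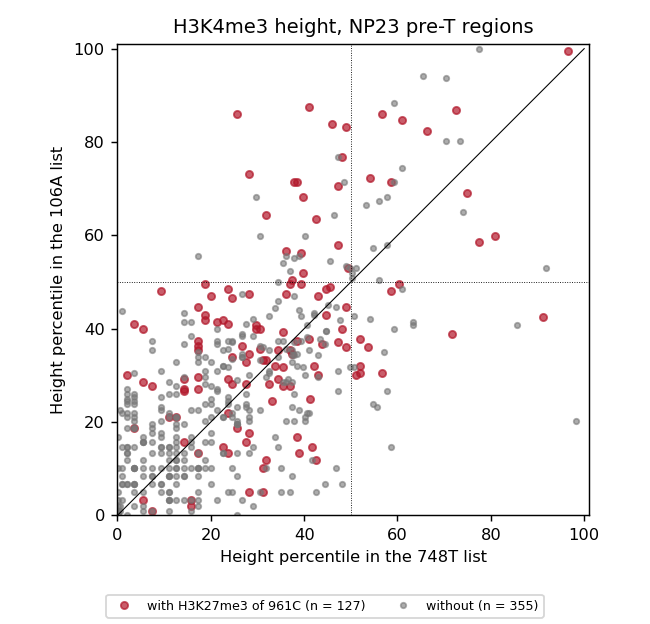
Percentile of maximum H3K4me3 height of each member in the 748T list (x) and the 106A list (y), with equality as a line and the list medians dotted. Most points lie below both medians (395 of 482), and members with H3K27me3 in 961C (red) had median percentiles of 34.4 in 748T and 37.1 in 106A, against 20.0 and 21.8 for members without it (grey).

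A difference of over 50 percentile points was found in only 2 members, which were singled out after their values were seen. Chromosome 2 from 152560706 to 152564506 reached 157 reads in 748T (percentile 98.4) and 26 reads in 106A (20.3). Chromosome 11 from 101645751 to 101646604 reached 27 reads in 748T (25.6) and 149 in 106A (86.1). The first was the tallest member in 748T, and an H3K4me3 peak of 961C lay 624 bp away. The second carried an H3K27me3 peak of 288 bp in 961C.

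The widest member lay on chromosome 11 from 88934688 to 88940075 (5388 bp). It reached 116 reads in 748T and 141 in 106A, and the nearest H3K4me3 was 12528 bp away in 961C and 12147 bp in the SCL-LMO1 line. No line had H3K27me3 in it. Next came chromosome 19 from 58525893 to 58531197 (5305 bp), with 139 reads in 748T and 78 in 106A. There 961C had 6 H3K27me3 peaks over 35.1% of the region, 106A had 2 over 49.1%, and 748T and the SCL-LMO1 line had none. This region was thus marked by both histone marks in 106A, by H3K4me3 alone in 748T and by H3K27me3 alone in 961C.

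The third was chromosome 7 from 75096761 to 75101092 (4332 bp), with 92 and 126 reads, 305571 bp from H3K4me3 of 961C and 172686 bp from that of the SCL-LMO1 line. The other 7 of the 10 widest were 3796 to 4020 bp. Among them chromosome 11 from 117827610 to 117831629 held a 2637-bp H3K27me3 peak of 961C over 65.6% of its length, and chromosome 6 from 72182048 to 72185914 held 4 such peaks over 67.2%. In several wide members the lines differed in extent. On chromosome 17 from 28646001 to 28650018 the mark covered 4018 bp in 106A and 861 bp in 748T.

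The member highest in both lists was chromosome 10 from 19075788 to 19079598. It reached 150 reads in 748T (percentile 96.4) and 183 in 106A (99.5), and lay 169716 bp from H3K4me3 of 961C and 144451 bp from that of the SCL-LMO1 line. Among the 10 highest by the lower of the percentiles, 2 lay close together on chromosome 17, from 39979999 to 39982659 and from 39985221 to 39985769. Over this pair the second track averaged 12.2 and 12.3 reads in 748T and 90.9 and 84.3 reads in 106A, against medians of 0.0934 and 1.32 over all members. A second track of over 5 reads was found in 4 members, and without them 478 remained. The other 8 of the 10 reached 105 to 150 reads in 748T and 122 to 183 in 106A.

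Many members carried H3K27me3 in the myeloid line. H3K27me3 of 961C overlapped 127 of 482 members (26.3%, exact 95% interval 22.5 to 30.5), against 4.72% of all H3K4me3 regions. The share was 12.5% (9.23 to 16.4) in regions of the 3 NP23 lines and 11.5% (9.91 to 13.3) in regions of the 3 pre-T lines, which also lack H3K4me3 in 961C. It was 1.68% in regions of all lines. Intervals here cover counting error only, and neighbouring regions are not independent. No test across regions was made. Leaving out 748T lowered the share to 9.92% of 1946 regions and leaving out 106A to 16.2% of 2215, and leaving out the SCL-LMO1 line gave 15.2% of 1915.

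In 748T itself H3K27me3 overlapped 30 members (6.22%, 4.24 to 8.77), against 1.01% of all regions. In 106A it overlapped 5 (1.04%, 0.338 to 2.40), against 0.427%. Regions of the 3 NP23 lines had 5.40% (3.28 to 8.30) for 748T and 1.99% (0.803 to 4.05) for 106A, and regions of 748T and 961C alone had 2.11% (0.968 to 3.96) for 106A. All of these intervals overlapped those of the members. With 748T left out of the rule these shares were 2.47% and 0.411%, with 106A left out 3.43% and 1.31%, and with the SCL-LMO1 line left out 2.35% and 0.522%. For the SCL-LMO1 line the count was 0 of 482, which allows a share of up to 0.622% if 3 counts are taken as the limit (exact upper bound 0.762%), against 0.104% of all regions. With 482 regions the SCL-LMO1 share cannot be told from that of all regions.

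The lists differ in length, so they were also cut to their tallest 4875 peaks, a choice made after seeing the data. Then 96 members (19.9%) met H3K27me3 of 961C, against 2.54% of all regions. In 748T it was 20 members (4.15%) against 0.706%, in 106A 5 (1.04%) against 0.391%, and in the SCL-LMO1 line 0 against 0.104%. The order of the lines therefore remained with lists of equal length.

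**Figure D3:**
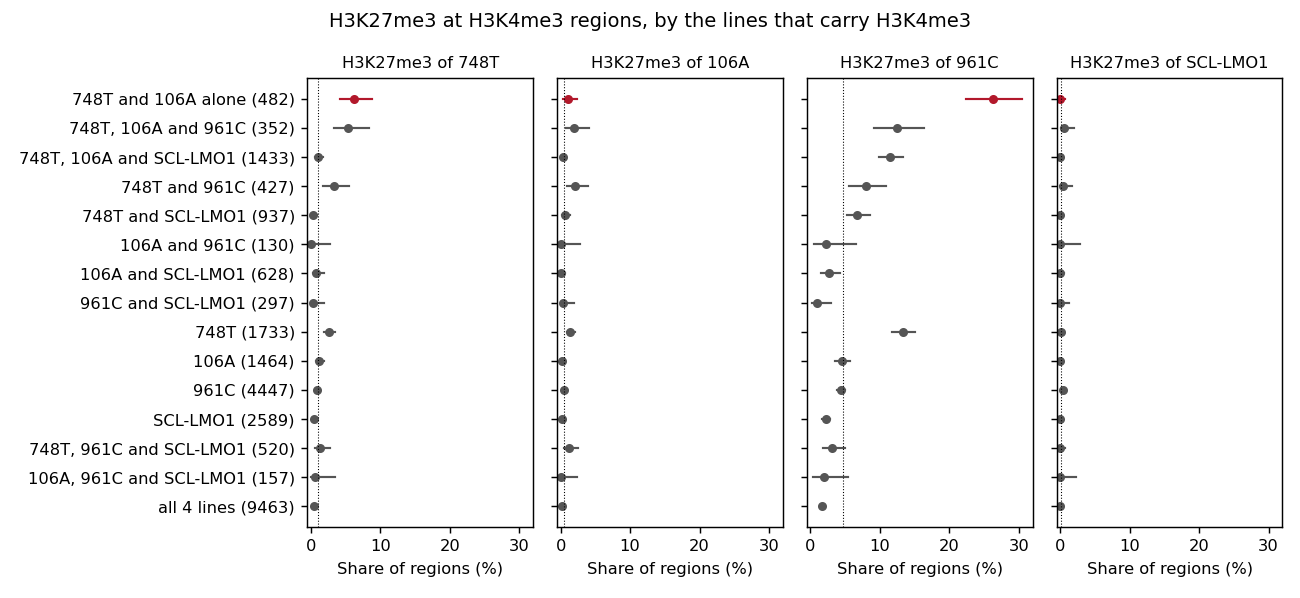
Share of H3K4me3 regions that overlap H3K27me3 of each line, grouped by the lines that carry H3K4me3, with the number of regions in brackets. Bars are exact 95% intervals and dotted lines the share of all regions. Members (red, top) had 26.3% with H3K27me3 of 961C, above every other class when all widths were pooled.

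The share of members with H3K27me3 of 961C was larger in wider regions. It was 8.89% of 45 members under 250 bp, 10.8% of 120 from there to 500 bp, 25.9% of 143 up to 1000 bp, 41.98% of 131 up to 2000 bp (33.4 to 50.9) and 41.9% of 43 above that. Regions of the 3 pre-T lines gave 0%, 1.11%, 4.0%, 12.8% and 26.1% in the same classes, and all regions 4.05% to 5.34%. Members exceeded the regions of all lines in each class, where 0% to 1.91% were marked. Under 250 bp that was 0 of 17 regions (upper bound 19.5%). Regions of 748T alone gave 8.24%, 11.4%, 19.8%, 21.3% and 20.0%, close to members below 500 bp. Their intervals were apart from those of members only from 1000 to 2000 bp (14.8 to 29.0 for 748T alone).

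The share also differed with height. Of 140 members whose lower percentile was under 10, 13 (9.29%) had H3K27me3 of 961C, and of 116 between 30 and 50, 52 did (44.8%, 35.6 to 54.3). Among the 29 members of percentile 50 or more in both lines it was 10 (34.5%, 17.9 to 54.3). The 127 marked members had a median width of 1153 bp and median maxima of 39 reads in 748T and 63 in 106A. The 355 unmarked members had 584 bp, 22 and 28 reads. A higher chance of meeting any peak in a wider region was not tested as a cause.

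Where it met a member, H3K27me3 of 961C covered a median of 56.8% of the region (quartiles 37.8 and 76.7), and 73 members were covered over 50% or more of their length. The 961C peaks at members had a median width of 691 bp and a median maximum of 16 reads, against 289 bp and 12 reads over the whole list. Peaks at members were also wider than their list in 748T (328 against 204 bp) and in 106A (483 against 216 bp). A higher chance of a wide peak meeting a region was not tested as a cause, and 961C peaks at other H3K4me3 regions were not compared. In 46 members 2 or more such peaks were found.

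The widest of these 961C peaks, 4160 bp with a maximum of 27 reads, covered the whole member on chromosome 5 from 31013612 to 31015593. There H3K4me3 reached 50 reads in 748T and 126 in 106A, and the nearest H3K4me3 of 961C lay 42533 bp away. A 3980-bp peak covered 87.6% of the member on chromosome 11 from 69615670 to 69617418, with 78 reads of H3K4me3 in 748T and 44 in 106A. Peaks of 3292, 3235 and 3227 bp covered members on chromosome 11 from 96975084 to 96977433, chromosome 4 from 135637447 to 135638604 and chromosome 17 from 37182498 to 37184137 in full. In these 5 members neither pre-T NP23 line nor the SCL-LMO1 line had H3K27me3. The remaining 5 of the 10 held peaks of 2774 to 3170 bp.

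The last of those 10 also carried H3K27me3 in a pre-T line. On chromosome 1 from 74849545 to 74850353, 748T had a 2602-bp peak of 23 reads beside H3K4me3 of 19 reads, and 961C had a 2774-bp peak of 24 reads. H3K4me3 of 106A reached 13 reads there, with no H3K27me3 listed.

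Around the members the mark of 961C peaked at the centre. In bins of 1 kb it was present at 25.7% of members in each of the bins beside the centre, at 10.8% between 4 and 5 kb upstream by coordinate, and at 4.98% between 18 and 19 kb. Regions of all lines had 1.09% and 1.17% in the central bins and 2.02% between 18 and 19 kb on the same side. For 748T the highest bins lay 1 to 2 kb off, with 8.30% and 7.68%, and the central ones held 6.43% and 6.85%. Within 10 kb of a member, H3K27me3 was listed for 135 (28.0%) by 748T, 32 (6.64%) by 106A, 210 (43.6%) by 961C and 40 (8.30%) by the SCL-LMO1 line, against 10.5%, 4.07%, 15.2% and 2.70% of all regions. Around regions of the 3 NP23 lines the shares were 24.1%, 9.94%, 33.2% and 8.81%, with the values for 106A and the SCL-LMO1 line above those around members. These differences were not tested.

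**Figure D4:**
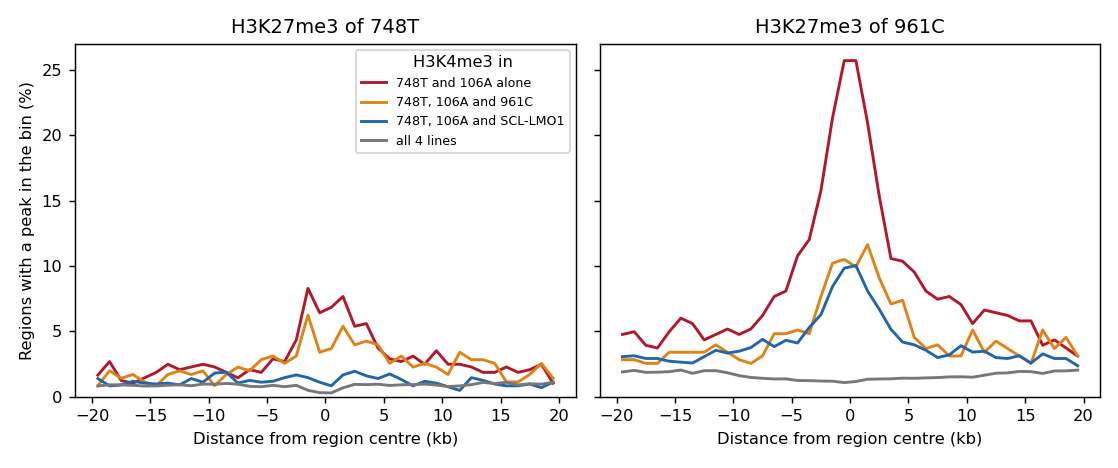
Share of regions with an H3K27me3 peak of 748T (left) or 961C (right) in each 1-kb bin, by distance in kb from the region centre. For 961C members (red) reach 25.7% at the centre, and regions of all lines (grey) stay at 1.09% to 2.05%.

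H3K27me3 of the pre-T lines at members mostly fell where 961C had it too. Of the 30 members with H3K27me3 of 748T, 21 (70.0%) also had it in 961C. All 5 members with H3K27me3 of 106A had it in 961C, and 2 of them also in 748T. The 30 members were wide (median 1431.5 bp). The same overlap was not counted for all 254 regions with H3K27me3 of 748T or all 107 with that of 106A. Whether it is particular to members is therefore not known. Members with H3K27me3 of 961C alone numbered 103, and 346 had none in any line. In 23 members the H3K27me3 of 748T directly overlapped the H3K4me3 peak of 748T, and in 7 it met only other bases of the merged region. In 106A all 5 overlapped directly.

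The 5 members with H3K27me3 of 106A were the 5305-bp region on chromosome 19 described above, chromosome 19 from 45375585 to 45377177, chromosome 2 from 118722048 to 118724115 and from 122590711 to 122591615, and chromosome 4 from 41677895 to 41678806. On chromosome 2 from 118722048, H3K27me3 covered 68.7% of the region in 106A and 100% in 961C, while H3K4me3 reached 57 reads in 748T and 18 in 106A. Chromosome 4 from 41677895 was marked by H3K27me3 in 748T (131 bp), 106A (119 bp) and 961C (1106 bp).

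NP23 of 961C met 1 member (0.207%, upper bound 1.15%), against 3.46% of all regions. Members lack H3K4me3 of 961C by the rule, and other classes without it also held little NP23. It met 0 of 1433 regions of the 3 pre-T lines, 0 of 1733 of 748T alone and 2 of 1464 of 106A alone. The low share is thus not particular to members, and its cause was not tested. The member, chromosome 5 from 147072563 to 147072931, had a second-track mean of 26.6 reads in 106A and 1.35 in 748T.

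Members lay on every autosome and on X. As a share of the H3K4me3 regions of a chromosome they made up 0.724% (0.235 to 1.68) of chromosome 18 at the lowest and 2.70% (1.79 to 3.91) of chromosome 12 at the highest. Only the interval of chromosome 18 left out the 1.92% of all regions. None of the 47 regions on unplaced sequence and none of 3 on Y was a member. Chromosomes 14 and 15, where the second track of 748T was higher (medians 0.317 and 0.320 reads, against 0.181 to 0.205 on the other autosomes), held 9.96% of members (7.43 to 13.0) and 7.77% of all regions.

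Among members, H3K27me3 of 961C was uneven over the chromosomes. It met 18 of 29 members on chromosome 6 (62.1%), 15 of 31 on chromosome 4 (48.4%) and 12 of 26 on chromosome 9 (46.2%). On chromosome 3 it met 2 of 25, and on chromosome 16 none of 12. Of the 18 on chromosome 6, 6 lay from 51000001 to 53000000 and 5 from 124000001 to 125000000. For all H3K4me3 regions the share was 4.72% over all chromosomes together, and it was not worked out by chromosome. Whether members are more uneven than other regions is therefore not known.

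**Figure D5:**
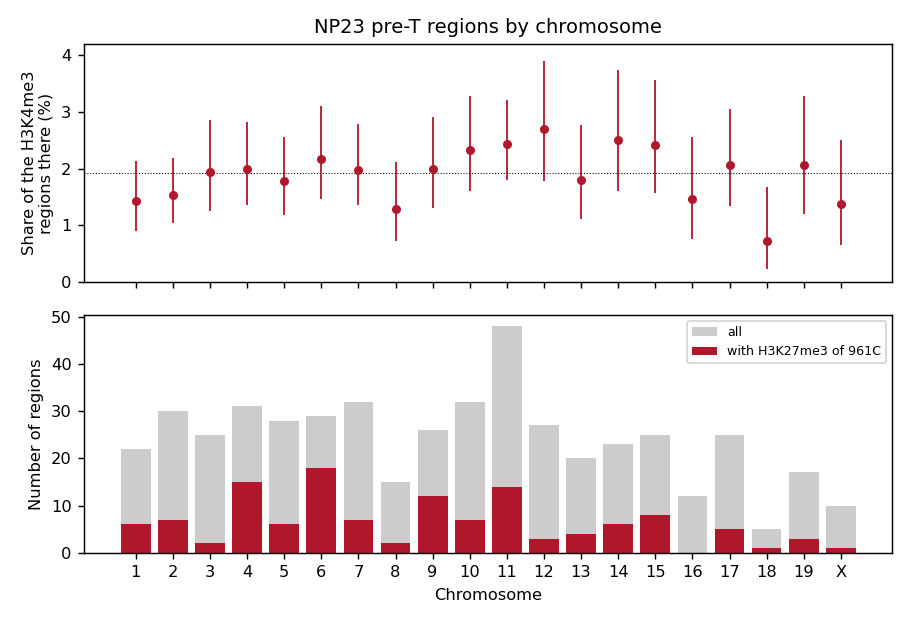
Top, members as a share of all H3K4me3 regions of each chromosome, with exact 95% intervals and the overall 1.92% dotted. Bottom, number of members (grey) and of those with H3K27me3 of 961C (red): chromosome 6 had 18 of 29 and chromosome 16 none of 12.

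Some members lay next to each other. Going along the chromosome, the next H3K4me3 region was a member in 38 of 482 cases (7.88%, 5.64 to 10.7), against 1.92% of all regions. Pairs found alone with the SCL-LMO1 line also ran together, at 10.5% for 748T (3.74% of regions) and 9.08% for 106A (2.51% of regions). Short range made up much of it: 22 of the 38 gaps between neighbours were under 1000 bp, and the share was 5.15% when peaks within 1 kb were merged. It was 22.2%, 21.7% and 13.8% of the larger sets left when 748T, 106A or the SCL-LMO1 line was dropped from the rule. Those sets made up 1946, 2215 and 1915 of the 25059 regions, against 482 for members. A larger set meets itself more often, so these shares are not on the same base as that of members. In all, 70 members formed 32 runs, of which 28 were pairs.

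The 4 longer runs were 2 on chromosome 6 and 1 each on chromosomes 13 and 15. On chromosome 6, 4 members lay between 51127812 and 51220993 and 3 between 51329215 and 51383235. The tallest of the 7, from 51219498 to 51220993, reached 112 reads in 748T and 141 in 106A. The lowest, from 51334271 to 51334561, reached 10 and 15 reads. H3K27me3 of 961C met 4 of these 7 and covered 92.7% of the member from 51382677 to 51383235. On chromosome 15, 4 members from 85838073 to 85865686 reached 41 to 69 reads in 748T and 26 to 63 in 106A, and 2 had H3K27me3 of 961C. The 3 on chromosome 13 (101013632 to 101016721) stayed at 8 to 9 and 10 to 13 reads, near the lowest listed heights.

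Chromosome 6 from 51000001 to 52000000 held the most members of any window of 1 Mb, 7 of 20 regions. Windows with 5 members followed on chromosomes 6, 7, 11 and 15. The one on chromosome 6, from 124000001 to 125000000, had H3K27me3 of 961C in all 5. The 5 reached 29 to 60 reads in 748T and 21 to 71 in 106A, and the mark of 961C covered 49.8% to 71.3% of each.

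The stretch of chromosome 6 from 51000001 to 53000000, widened after these values were seen, had 46 H3K4me3 regions and 10 members (21.7%). It holds the wide H3K4me3 domain of the fusion lines from 52156421 to 52185551. A peak of 748T was present at 34 of the 46 regions, of 106A at 26, of 961C at 16 and of the SCL-LMO1 line at 12. Over the whole series those lines had 61.2%, 56.3%, 63.0% and 63.9% of regions. In this stretch the SCL-LMO1 line had 26.1% and 961C 34.8%. The stretch was chosen for its many members, which lack H3K4me3 of both lines by the rule. That choice lowers these shares and raises those of 748T and 106A, so they are no separate result.

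Beyond the wide domain, members from 52208840 to 52210872 and from 52211091 to 52211518 reached 97 and 35 reads in 748T and 96 and 52 in 106A. H3K27me3 of 961C met both. On the other side, the member from 52065286 to 52066295 reached 52 reads in 748T and 28 in 106A and had no H3K27me3. Of the 10 members in the stretch, 6 had H3K27me3 of 961C and none had that of 748T. The same share was not counted over all 46 regions of the stretch. H3K27me3 peaks in the stretch numbered 13 for 748T, 16 for 106A, 94 for 961C and 14 for the SCL-LMO1 line. These came from lists of unlike length, at 8412, 5600, 19469 and 4875 peaks in the same order.

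From regions of all lines, members lay a median of 30522 bp away, and 89 (18.5%) lay within 5 kb, against 16.8% of all regions that are not in all lines. Nearest H3K4me3 of 961C was a median of 20784 bp away and that of the SCL-LMO1 line 17008 bp. Such a peak of either line lay within 1 kb of 95 members (19.7%), and none lay within 100 kb of 44. Without the 95 the share with H3K27me3 of 961C was 30.7% of 387 members.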

How the data were processed

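Peak lists of 9 of the 13 samples were used, without the 4 inputs. Fixed and sonicated chromatin was immunoprecipitated and sequenced from single ends, per the labels' protocols. Per the submitters' processing notes, CASAVA 1.9, BWA 0.5.9-r26 and build mm9 were used. No source used here gives the peak caller. The lists deposited by the authors give start, end and a text field with a pair of values under each of 2 unexplained letters. From the values, they were read as the mean and maximum pileup signal, in reads, of the sample and of a second track, which was taken as background for its low values (missing in 5 of 109165 rows). Depth is unknown, which limits precision. Starts were shifted to count from 1.

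Peaks overlapping by 1 bp were merged, and shares carry exact Clopper-Pearson 95% intervals. Height percentiles rank peaks within a list. The share of regions marked is over all 25059 regions unless stated. Members and lists were chosen with earlier results of these data known. Regions named were the 10 widest, the 10 with the highest lower percentile, runs of 3 or more, those with NP23, and the 10 with the widest H3K27me3 peak of 961C; others were named after their values were seen. Merging and overlap recovered planted patterns in simulated peaks. The simulated regions lay far apart and peaks within a region always overlapped, so narrow gaps were not tried. Alternatives were other merging, absence and height limits, lists of equal length, autosomes alone, and each line left out. Python 3.11.15, numpy 2.4.6, pandas 2.3.3 and scipy 1.17.1 were used.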

Additional observations from a re-analysis of the deposited data

How the results depend on the processing

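No paired analysis was possible because 748T and 106A were numbered 1 and 2 in accession order only, not by the labels, and every other group has 1 sample. Leaving out 748T or 106A gave 1946 to 2215 regions, median widths of 329.5 to 410 bp, 21.7% to 22.2% with a like neighbour, and H3K27me3 at 2.47% to 3.43% (748T) and 9.92% to 16.2% (961C). Without 961C in the rule the count was 834, the width 1012 bp and the share with H3K27me3 of 961C 20.5%. Without the SCL-LMO1 line they were 1915, 1031 bp and 15.2%, with 13.8% for neighbours and 2.35% for H3K27me3 of 748T. Neighbour shares of sets of unlike size are not on the same base. Members of 500 bp or more numbered 317, with 1076 bp, a height correlation of 0.536, 5.36% for neighbours and 34.7% for 961C. The taller 50% of the 748T and 106A lists left 29, with 1640 bp, 0.432, 0% for neighbours, 0% for H3K27me3 of 106A and 34.5% for 961C. Merging within 1 kb gave 1027 bp, 5.15% for neighbours, 8.94% for H3K27me3 of 748T and 31.98% for 961C. Keeping 1 kb free of other peaks gave 879 bp and 30.7%, and H3K4me3 lists of equal length 825 bp. For H3K27me3 of 748T and 961C, a reach of 1 kb gave 13.1% and 30.7%, and equal lists 4.15% and 19.9%. The taller 50% of H3K27me3 peaks gave 3.73% in 748T. The share of all regions was not worked out for the 1-kb reach, for merging within 1 kb or for the taller 50% of either mark. Whether members moved more than all regions there is not known. The causes were not tested. Depth is unknown, so an absent peak is one not listed.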

Other observations

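Regions found in only 1 of the NP23 pre-T lines differed in the same readout. H3K27me3 of 961C met 13.4% of the 1733 regions of 748T alone (11.8 to 15.1) and 4.51% of the 1464 regions of 106A alone (3.50 to 5.70). H3K27me3 of 748T met 2.65% and 1.23% of them. Regions of 106A alone lay closer to regions of all lines than members did: 39.5% were within 5 kb of one, against 18.5% of members and 13.0% of regions of 748T alone. This difference between the lines was not tested.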
